A study of Mus musculus with 20 samples.

Results

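The inflammasome and pyroptosis genes described here are 9 genes of 1 pathway in primary mouse renal tubular epithelial cells. They were chosen by symbol, with earlier results of these data known, as the sensors Nlrp3 (ENSMUSG00000032691) and Aim2 (ENSMUSG00000037860), the adaptor Pycard (ENSMUSG00000030793), the caspases Casp1 (ENSMUSG00000025888) and Casp4 (ENSMUSG00000033538), the cytokine Il18 (ENSMUSG00000039217), the gasdermins Gsdmd (ENSMUSG00000022575) and Gsdme (ENSMUSG00000029821), and Ninj1 (ENSMUSG00000037966). All 9 were found among the 55891 gene IDs of the deposited table. Cells of mice carrying the targeted allele B6.129-Ptprz1tm1Nmo, either heterozygous (het) or knockout (KO) for the receptor-type tyrosine phosphatase gene Ptprz1, were left untreated (control) or given LPS at 100 ng/mL with IFNγ at 10 ng/mL for 24 h (LPS+IFNγ), which gave 4 groups of 5 libraries each. Both genotypes carry the targeted allele, and no wild-type cells are among the 20 libraries. All cells were grown in the same serum-containing medium with epidermal growth factor, prostaglandin E2, triiodothyronine, hydrocortisone, epinephrine and an insulin, transferrin and selenite supplement. The labels name 10 animals, and nothing in them tells whether libraries came from separate isolations. Animals 5 and 7 are listed under both genotypes, which 1 animal cannot have, so their animal ID or a genotype label is in doubt. By the animal labels each library of a group is from a different animal, so the p-values cover the spread among animals only if those labels are right. Control and stimulated libraries share animals, and the main test has no block for this.

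An inflammasome is a cytosolic complex in which a sensor such as NLRP3 or AIM2 recruits the adaptor ASC, the product of Pycard, which in turn gathers and activates caspase-1. Caspase-1 matures the cytokines IL-1β and IL-18 and cleaves gasdermin D, whose freed N-terminal part forms pores in the plasma membrane. In the non-canonical branch mouse caspase-11, the product of Casp4, binds cytosolic LPS directly and cleaves gasdermin D without an inflammasome sensor. Gasdermin E is a related pore former, and NINJ1 ruptures the plasma membrane of dying cells. All these proteins act after cleavage or assembly, so transcript levels show which parts are present and not whether the pathway ran. The kidney tubule is a known site of IL-18, of caspase-11 and of gasdermin D in injury models.

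Before any result, 4 libraries have to be set apart. Nos2, Gbp2 and Tap1, which IFNγ and LPS induce, went against the stimulation label in both libraries of animal 4 (het replicate 5) and of animal 8 (KO replicate 4). Nos2 stood at 82.9 and 203 CPM (reads counted per gene, scaled to a common library size) in the libraries of these animals labelled control, and had no counts in those labelled LPS+IFNγ. In the other 16 libraries it stood at 1256 to 3567 CPM with the stimulus and at no more than 0.219 CPM without it. The members' fold changes are therefore given with all 20 libraries as labelled and with the 16 libraries of the other animals, while levels per kb and the values of other pathway genes are given for the 16 unless stated otherwise. The 4 were left out with their outcome known, so the 16-library values describe those libraries and are not independent evidence. Total counts ran from 12899528 to 20411411 per library with a median of 17431039. Ptprz1 was near the detection limit in every library, so it could not check the genotype labels. As for the labelled cell type, the nephron transcription factor gene Pax8 stood at 134 to 388 CPM in all 20 libraries, whereas the epithelial cadherin gene Cdh1 stood at 0.365 to 1.72 CPM in the 6 libraries of animals 2, 6 and 10 and at 18.8 to 201 CPM in the other 14.

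The promoters of 4 members are printed because 3 of these genes rose together with the stimulus and the fourth, Ninj1, had the highest level per length in untreated cells. Each is the 250 bases before a RefSeq transcript start on the GRCm38.p6 assembly, 5′ to 3′ on the strand of the gene. Casp4 is at chr9:5308599-5308848, Casp1 at chr9:5298267-5298516, Il18 at chr9:50554450-50554699 and Ninj1 at chr13:49187279-49187528, all on the plus strand. Capitals mark matches, on either strand, to a kappa B motif (GGG, any 2 bases, then TTTCC).
Casp4: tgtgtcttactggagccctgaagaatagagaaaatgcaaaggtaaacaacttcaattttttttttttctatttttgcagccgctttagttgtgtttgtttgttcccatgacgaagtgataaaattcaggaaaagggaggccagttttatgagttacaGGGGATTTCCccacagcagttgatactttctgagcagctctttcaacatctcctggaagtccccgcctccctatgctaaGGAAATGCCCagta
Casp1: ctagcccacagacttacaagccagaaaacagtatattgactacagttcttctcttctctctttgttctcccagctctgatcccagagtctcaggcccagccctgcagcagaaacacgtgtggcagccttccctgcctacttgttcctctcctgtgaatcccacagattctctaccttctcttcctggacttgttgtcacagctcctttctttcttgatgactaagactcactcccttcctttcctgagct
Il18: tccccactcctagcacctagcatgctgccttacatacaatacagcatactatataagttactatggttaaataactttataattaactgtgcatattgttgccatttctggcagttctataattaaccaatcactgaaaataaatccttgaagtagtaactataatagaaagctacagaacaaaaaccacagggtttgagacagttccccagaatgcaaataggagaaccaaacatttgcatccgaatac
Ninj1: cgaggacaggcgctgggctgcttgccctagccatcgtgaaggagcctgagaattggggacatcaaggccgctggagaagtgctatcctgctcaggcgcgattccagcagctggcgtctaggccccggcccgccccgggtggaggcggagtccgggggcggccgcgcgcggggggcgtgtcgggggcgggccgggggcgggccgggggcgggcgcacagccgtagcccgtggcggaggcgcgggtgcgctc
In Casp4 the match on the plus strand, GGGGATTTCC, lies 93 to 84 bases before the start and the match on the minus strand, read as GGAAATGCCC, lies 14 to 5 bases before it, and they do not overlap. Casp4 also has a start 11 bases downstream whose window holds the same 2 matches. A kappa B match is found in 1.41% of the 32851 promoter windows of that length, an interferon-stimulated response element (GAAA, any 2 bases, then GAAA) in 2.98% and a gamma-activated site (TTCNNNGAA) in 7.02%, on either strand. Of the 9 members 8 have a promoter entry, with 10 entries in all, and Gsdmd has none and was not searched. Casp4 was the only one of the 8 with a match to any of the 3 motifs. The windows also differ in composition: that of Ninj1 is 76.0% G or C with 31 CpG dinucleotides, against 41.6% and 3 for Casp4, 49.2% and 1 for Casp1, and 35.6% and 1 for Il18. Neither a match nor its absence in such a short window shows which factor acts there.

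Which parts of the pathway were present in untreated cells was read from the level per kilobase of merged exons, since longer transcripts give more reads. In het control cells of the 16-library set the order was Ninj1 at 18.7 ± 4.79, Gsdmd at 1.45 ± 0.594, Il18 at 1.44 ± 0.647, Casp4 at 1.17 ± 0.464, Pycard at 0.423 ± 0.155, Gsdme at 0.297 ± 0.104, Casp1 at 0.281 ± 0.0877, Nlrp3 at 0.0511 ± 0.0536 and Aim2 at 0.0386 ± 0.0391 CPM per kb (SD, n = 4). The ranges of mean ± SD left gaps below Ninj1, between Casp4 and Pycard, and between Casp1 and Nlrp3, while the other neighbours overlapped. KO control cells had Ninj1 at 15.1 ± 1.5, Il18 at 1.86 ± 0.469, Casp4 at 1.51 ± 0.280, Gsdmd at 1.01 ± 0.246, Pycard at 0.332 ± 0.143, Casp1 at 0.204 ± 0.0423 and Gsdme at 0.196 ± 0.0288 CPM per kb (SD, n = 4), with no counts of Nlrp3 or Aim2. The membrane rupture gene was thus the most abundant member in both genotypes, and the sensors the least. The merged exon length of Gsdme is 12742 bases, against 1031 to 4057 for the other 8. Merged lengths include exons that need not be used in these cells, so the level per kb of Gsdme may be too low. The same holds for other members, such as Pycard at 3800 and Casp4 at 3710 bases, so the order between members depends on these lengths.

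With the stimulus the mean of Casp4 stood second in both genotypes. That of Casp1 stood above that of Pycard, though their ranges of mean ± SD overlapped in both genotypes. In het cells the mean of Nlrp3 stood above that of Gsdme, and these ranges overlapped too. This Nlrp3 mean rests on replicate 4, with 98 counts, against 5, 5 and 0 in replicates 1 to 3. In control cells of both genotypes the range of Casp4 had overlapped those of Gsdmd and Il18. The ranges of Casp1, Pycard and Gsdme had overlapped in het control cells. In het cells given LPS+IFNγ Ninj1 stood at 42.9 ± 31.0, Casp4 at 14.7 ± 2.63, Gsdmd at 13.7 ± 7.79, Il18 at 8.13 ± 3.72, Casp1 at 2.20 ± 0.969, Pycard at 1.82 ± 1.69, Nlrp3 at 0.421 ± 0.748, Gsdme at 0.289 ± 0.128 and Aim2 at 0.0619 ± 0.0714 CPM per kb (SD, n = 4). KO cells given LPS+IFNγ had Ninj1 at 31.7 ± 1.94, Casp4 at 16.3 ± 4.86, Gsdmd at 11.1 ± 2.01, Il18 at 5.90 ± 1.60, Casp1 at 1.67 ± 0.373, Pycard at 1.58 ± 0.586, Gsdme at 0.248 ± 0.0776, Nlrp3 at 0.0663 ± 0.0689 and Aim2 at 0.0125 ± 0.0158 CPM per kb (SD, n = 4). In both genotypes Casp4 and Gsdmd, the protease and the pore former of the LPS-sensing branch, overlapped within their spread and stood above Casp1 and Pycard. Gaps in mean ± SD lay between Il18 and Casp1 and between Gsdme and Aim2 in het cells, and in KO cells below Ninj1, on both sides of Il18, and on both sides of Gsdme.

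**Figure D1:**
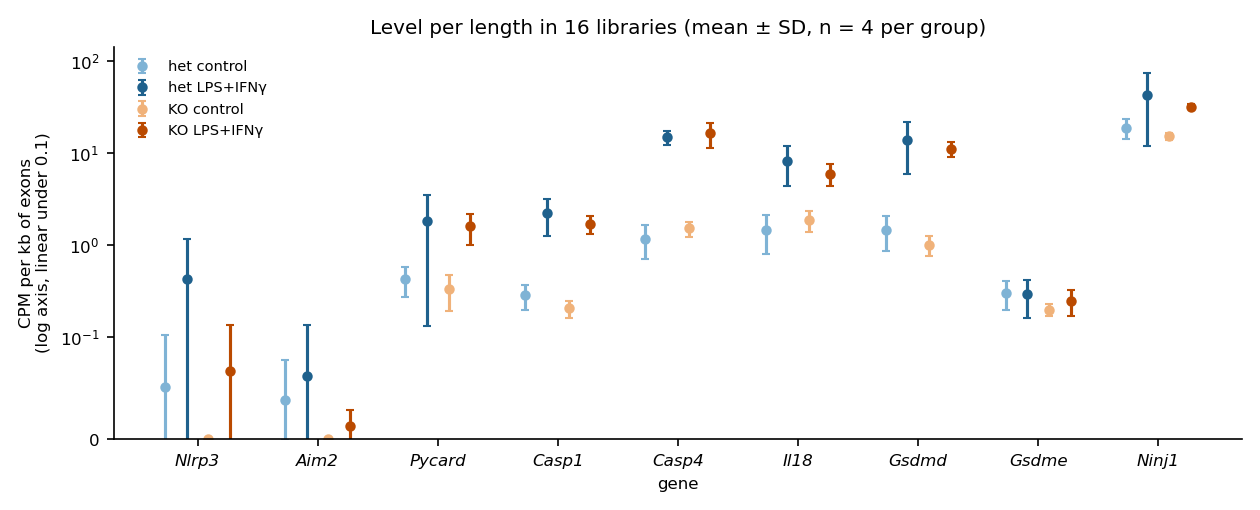
Level of the 9 genes in CPM per kb of merged exons (log axis, linear below 0.1) in the 16 libraries; points are means and bars SD over 4 libraries per group. Ninj1 is highest in every group, Casp4 and Gsdmd sit at 11.1 to 16.3 with LPS+IFNγ, and Nlrp3 and Aim2 are lowest or at 0 in control cells.

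Of the sensors, Nlrp3 senses ion flux and membrane damage and Aim2 senses cytosolic DNA. Nlrp3 had 7, 0, 1, 9 and 0 counts in het control replicates 1 to 5, and 5, 5, 0, 98 and 1 counts in het LPS+IFNγ replicates 1 to 5. It had 0 counts in all 5 KO control libraries and 1, 8, 0, 0 and 9 counts in KO LPS+IFNγ replicates 1 to 5. Het LPS+IFNγ replicate 4, from animal 9, thus stood at 6.25 CPM, and no other library was above 0.537 CPM. Aim2 ran from 0 to 0.574 CPM over the 20 libraries, again highest in het LPS+IFNγ replicate 4, and had 11, 15, 0 and 3 counts over the het control, het LPS+IFNγ, KO control and KO LPS+IFNγ groups. For a library with no counts, the upper limit set by counting (3 counts) was 0.163 to 0.219 CPM in KO control, so the absence of either sensor cannot be read from these zeros. Neither gene passed the filter on low counts. In a fit of the 20 libraries without that filter neither was called in the response of het cells (Nlrp3 adjusted p = 0.561, Aim2 0.894) or of KO cells (both 0.737), nor in the 16 libraries (0.438 and 0.880 in het, 0.495 and 0.634 in KO cells). No fold is given for either gene against KO control, which had no counts.

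Leukocyte genes were high in the library with the highest Nlrp3 and Aim2. The summed level of 16 leukocyte markers was 72.8 to 383 CPM in the 4 libraries of animals 1 and 9, both het, and 5.13 to 24.9 CPM in the other 16 libraries. The lowest of the 4, het LPS+IFNγ replicate 1, owed most of its sum to Cd68 (42.7 CPM) and Lyz2 (17.0 CPM). It had 7 markers over 1 CPM, against 11 to 13 in the other libraries of these animals and 2 to 5 elsewhere. In het LPS+IFNγ replicate 4 the pan-leukocyte gene Ptprc stood at 8.68, the macrophage gene Adgre1 at 29.6 and the lysozyme gene Lyz2 at 103 CPM, and in the control library of the same animal at 7.43, 6.66 and 215 CPM. By group the sum ranged from 6.29 to 383 CPM in het control, 6.52 to 240 in het LPS+IFNγ, 12.7 to 20.1 in KO control and 5.13 to 24.5 in KO LPS+IFNγ libraries, with 2 to 8 of the 16 markers at 0 in a library and the T cell gene Cd3e at 0 in all 20. In control libraries of these animals, where the sum was 108 and 383 CPM, Nlrp3 stood at 0.313 and 0.461 CPM and Aim2 at 0.179 and 0.308 CPM, the highest of the het control group for both genes. Nlrp3 was also counted at low marker sums, at 0.482 and 0.537 CPM in KO LPS+IFNγ replicates 2 and 5, where the sums were 10.5 and 5.13 CPM. The part of leukocyte RNA in the Nlrp3 and Aim2 counts was not tested, and in such bulk RNA fewer cells of a type and less RNA per cell cannot be told apart.

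**Figure D2:**
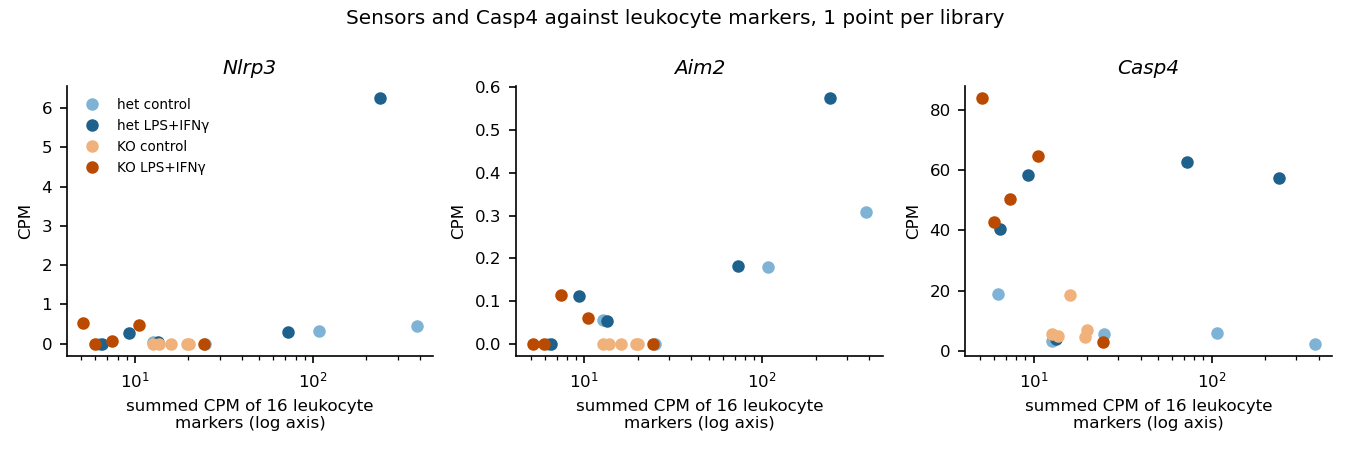
CPM of Nlrp3, Aim2 and Casp4 (vertical axes) against the summed CPM of 16 leukocyte markers (log axis), 1 point per library, coloured by labelled group. The single high Nlrp3 value, 6.25 CPM, lies in the library with a marker sum of 240 CPM, whereas Casp4 values of 40.4 to 83.7 CPM occur at marker sums of 5.13 to 240 CPM.

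The adaptor gene Pycard was low in every group and rose in the 16-library set. In control cells it stood at 2.06, 0.766, 1.97, 1.64 and 1.34 CPM in het replicates 1 to 5 and at 0.525, 1.19, 1.58, 1.62 and 1.75 CPM in KO replicates 1 to 5. With LPS+IFNγ it stood at 16.3, 3.83, 1.82, 5.81 and 1.88 CPM in het and at 3.1, 5.84, 6.60, 0.583 and 8.47 CPM in KO replicates 1 to 5. Replicate 1 was far above the other het LPS+IFNγ libraries, and replicate 3 was inside the control range. The same library, from animal 1, also held the highest Casp4, Gsdmd, Il18 and Ninj1 of its group and the macrophage gene Cd68 at 42.7 CPM, the highest of all 20, whose part in these values was not tested. In the 16 libraries the log2 fold change was 2.10 ± 0.59 (SE, edgeR adjusted p = 0.0466) in het and 2.25 ± 0.60 (adjusted p = 0.0406) in KO cells. In het cells the call was lost without het LPS+IFNγ replicate 1, where the log2 fold change fell to 1.24 (adjusted p = 0.195). It was also lost when any of the 4 het controls, or the stimulated replicate 4, was left out, where the log2 fold change stayed at 1.88 to 2.24 (adjusted p up to 0.112), and without the filter on low counts (2.10, adjusted p = 0.0561). In KO cells it was lost without any 1 of the 8 libraries other than LPS+IFNγ replicate 1 (adjusted p up to 0.122), at log2 fold changes of 1.99 to 2.44. With a block by replicate number the call was lost in both genotypes (adjusted p = 0.0633 in het and 0.0512 in KO). That number joins libraries of different animals in het replicate 3 and in KO replicates 2 and 3. With the animal as a block Pycard was called in both genotypes. With all 20 libraries the value was 1.92 ± 0.64 (adjusted p = 0.175) in het and 1.88 ± 0.64 (adjusted p = 0.352) in KO cells.

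Both inflammatory caspases of the list rose in the 16 libraries. Casp4 in control cells stood at 5.81, 5.74, 3.34, 2.41 and 18.9 CPM in het replicates 1 to 5 and at 4.72, 4.93, 7.02, 18.7 and 5.70 CPM in KO replicates 1 to 5. With LPS+IFNγ it stood at 62.5, 58.3, 40.4, 57.4 and 3.96 CPM in het and at 50.3, 64.5, 42.7, 2.85 and 83.7 CPM in KO replicates 1 to 5. Het replicate 5 and KO replicate 4, the animals set apart above, were the high controls and the low stimulated libraries. In the other 16 libraries the groups did not overlap, and the lowest stimulated library was 6.95 times the highest control in het and 6.09 times in KO cells. There the log2 fold change of Casp4 was 3.66 ± 0.30 (SE, edgeR adjusted p = 1.31e-06) in het, a 12.6-fold rise, and 3.43 ± 0.30 (adjusted p = 2.34e-06) in KO cells, a 10.8-fold rise. With all 20 libraries it was 2.62 ± 0.78 (adjusted p = 0.139) and 2.57 ± 0.77 (adjusted p = 0.321).

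Casp1, the protease of the canonical inflammasome, stood at 0.358, 0.383, 0.328, 0.615 and 1.28 CPM in het control and at 0.233, 0.271, 0.351, 0.562 and 0.365 CPM in KO control replicates 1 to 5. After the stimulus its values were 2.85, 2.77, 2.15, 5.42 and 0.469 CPM in het and 1.90, 2.17, 3.07, 0.130 and 2.86 CPM in KO replicates 1 to 5. Outside animals 4 and 8 every stimulated library was above every control, from 20 to 32 counts over the 4 control libraries of a genotype to 172 to 215 counts over the 4 stimulated ones. The log2 fold change of Casp1 in the 16 libraries was 2.95 ± 0.36 (SE, edgeR adjusted p = 7.80e-05) in het and 3.01 ± 0.37 (adjusted p = 8.44e-05) in KO cells, and with all 20 libraries 2.19 ± 0.64 (adjusted p = 0.136) and 2.49 ± 0.67 (adjusted p = 0.321). The 8 controls of the 16 libraries held 4 to 12 counts of Casp1 each, so it passed the filter on low counts through the stimulated libraries, where it is high. Without that filter the 16-library values were 2.95 ± 0.40 (adjusted p = 0.000156) and 3.01 ± 0.41 (adjusted p = 0.000167).

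Il18, the one inflammasome cytokine among the members, was already transcribed in control cells. It stood at 1.21, 2.42, 0.875, 1.44 and 2.89 CPM in het control and at 2.33, 1.46, 2.34, 3.19 and 1.53 CPM in KO control replicates 1 to 5. With LPS+IFNγ it stood at 13.7, 7.26, 4.5, 8.1 and 1.2 CPM in het and at 6.49, 7.95, 3.97, 1.81 and 5.91 CPM in KO replicates 1 to 5. Outside animals 4 and 8 the groups did not overlap in either genotype. The log2 fold change in the 16 libraries was 2.49 ± 0.39 (SE, edgeR adjusted p = 0.000708) in het and 1.66 ± 0.38 (adjusted p = 0.0153) in KO cells, and with all 20 libraries 1.97 ± 0.51 (adjusted p = 0.112) and 1.26 ± 0.51 (adjusted p = 0.436). The KO call was lost without KO control replicate 2 or 5 or KO LPS+IFNγ replicate 2 (log2 fold changes of 1.49 to 1.57, adjusted p up to 0.0637). The het call was lost without animals 1 and 9, which had the highest leukocyte marker sums (1.85 ± 0.50, adjusted p = 0.0721).

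The 2 gasdermins of the list parted ways. Gsdmd, the substrate of both caspases, stood at 5.01, 1.91, 4.21, 2.67 and 7.79 CPM in het control and at 2.80, 2.98, 1.81, 12 and 1.97 CPM in KO control replicates 1 to 5. With LPS+IFNγ it stood at 57.4, 17.7, 19.2, 35.7 and 1.88 CPM in het and at 21.8, 23.5, 27.5, 4.66 and 32.6 CPM in KO replicates 1 to 5. Outside animals 4 and 8 the groups did not overlap. The log2 fold change of Gsdmd in the 16 libraries was 3.23 ± 0.39 (SE, edgeR adjusted p = 7.77e-05) in het, a 9.36-fold rise, and 3.45 ± 0.40 (adjusted p = 4.87e-05) in KO cells, an 11-fold rise. With all 20 libraries it was 2.61 ± 0.73 (adjusted p = 0.119) and 2.35 ± 0.72 (adjusted p = 0.325). Gsdme stood at 4.07, 2.74, 2.79, 5.54 and 2.78 CPM in het control, 4.61, 2.55, 2.08, 5.49 and 2.61 CPM in het LPS+IFNγ, 2.51, 2.11, 2.40, 2.25 and 2.99 CPM in KO control, and 1.90, 3.31, 4.30, 1.94 and 3.1 CPM in KO LPS+IFNγ replicates 1 to 5. All 4 groups of Gsdme overlapped, and its log2 fold change in the 16 libraries was −0.04 ± 0.35 (adjusted p = 0.964) in het and 0.33 ± 0.35 (adjusted p = 0.749) in KO cells. The 95% interval of the het value, −0.73 to 0.65, leaves out a change of the size seen for Gsdmd.

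Ninj1, which acts last, was the most abundant member per length in control cells, and its fold change was smaller than that of the 5 called members. It stood at 39.0, 24.0, 22.9, 31.7 and 24.8 CPM in het control and at 24.7, 24.3, 25.5, 26.1 and 20.2 CPM in KO control replicates 1 to 5. The stimulated libraries stood at 138, 36.2, 35.1, 59.9 and 21.3 CPM in het and at 46.8, 51.0, 47.8, 21.4 and 53.4 CPM in KO replicates 1 to 5. Outside animals 4 and 8 the KO groups did not overlap, and the het groups did, through the control library of animal 1 at 39.0 CPM. In the 16 libraries the log2 fold change was 1.19 ± 0.35 (SE, edgeR adjusted p = 0.0530) in het and 1.07 ± 0.35 (adjusted p = 0.101) in KO cells, past the threshold in neither. With all 20 libraries it was 1.03 ± 0.37 (adjusted p = 0.222) and 0.87 ± 0.37 (adjusted p = 0.497). With the animal as a block it was 1.04 ± 0.21 (adjusted p = 0.0136) and 1.03 ± 0.21 (adjusted p = 0.0154), past it in both. The het value fell to 0.57 without het LPS+IFNγ replicate 1, the library at 138 CPM.

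**Figure D3:**
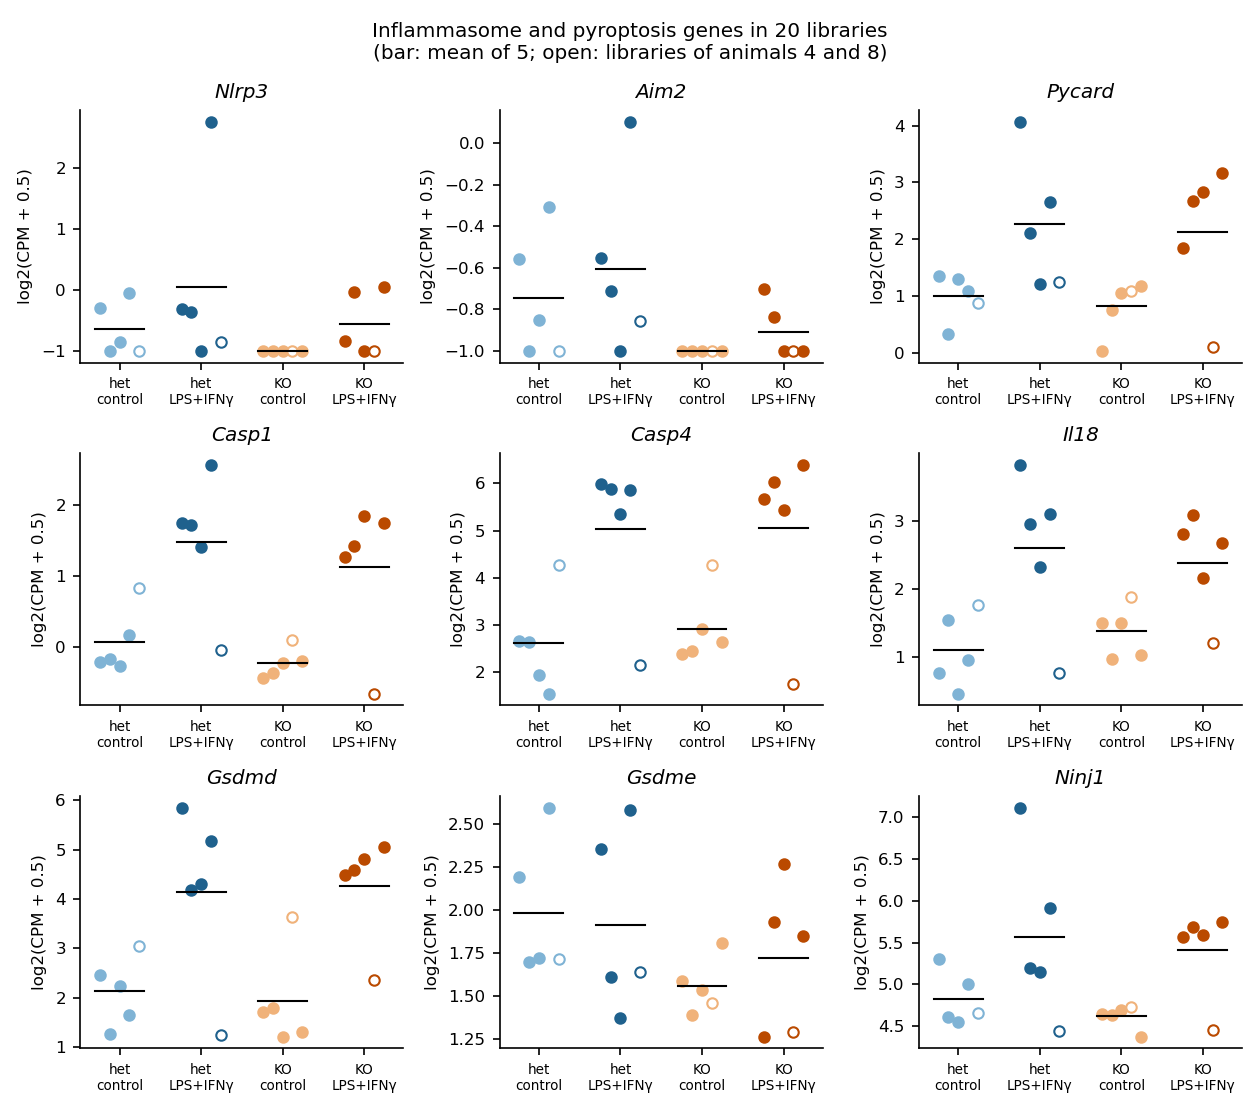
Level of each of the 9 genes as log2(CPM + 0.5) in the 20 libraries by labelled group; each point is 1 library, bars are means of 5, and open points are the libraries of animals 4 and 8. Casp4, Gsdmd, Casp1 and Il18 of the filled points are higher with LPS+IFNγ without overlap, and Gsdme is not.

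Counted over the comparison, none of the 7 members that passed the filter was called in the 20 libraries as labelled, in het or in KO cells, and 0% of the 14568 genes tested were called in either. In these 20 libraries 6 of the 7 had an unadjusted p under 0.05 in het cells, against 13.6% of all genes tested, and 6 of 7 in KO cells, against 8.97%. DESeq2 called 4 of them in het (Casp1, Casp4, Il18 and Gsdmd), against 483 genes in all. It called 2 in KO cells (Casp1 and Casp4), against 115 genes in all. The 20-library log2 fold changes in het cells ran from −0.05 for Gsdme to 2.62 for Casp4 (adjusted p 0.112 to 0.965) with a median of 1.97, and in KO cells from 0.25 for Gsdme to 2.57 for Casp4 (adjusted p 0.321 to 0.916) with a median of 1.88. In the 16 libraries 5 of the 7 rose in het cells, against 5.67% of 14630 genes tested, and the same 5 rose in KO cells, against 4.81%. These 5 were Pycard, Casp1, Casp4, Il18 and Gsdmd. Groups without overlap, stimulated above control, were found for 4 members in het cells (7.23% of genes tested) and for 6 in KO cells (10.7%). Those 4 were Casp1, Casp4, Il18 and Gsdmd, and the 6 were these with Pycard and Ninj1. In the 20 libraries as labelled, every member's groups overlapped (0.329% of genes did not in het and 0.35% in KO cells, stimulated above control). In the 16 libraries the median over the 7 was 2.49 in het and 2.25 in KO cells, beside −0.03 and −0.01 over all genes tested. These counts and medians are a description, since Nlrp3 and Aim2 are not among the 7 and Casp1 passed the filter through the stimulated libraries.

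**Figure D4:**
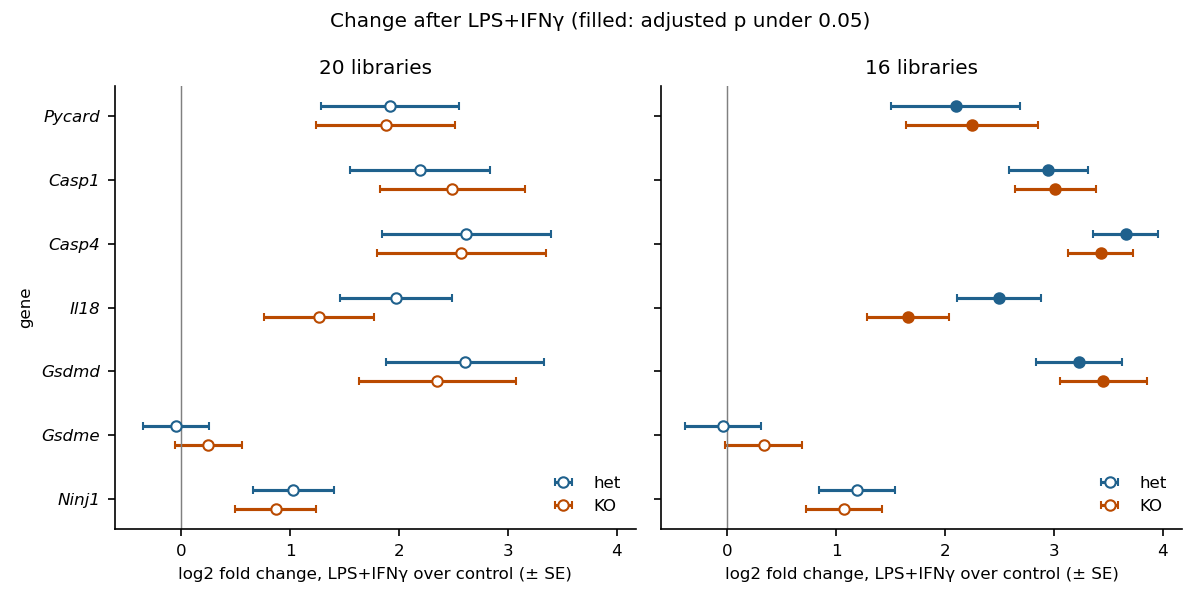
Log2 fold change of 7 members, LPS+IFNγ over control, with 20 libraries (left) and 16 libraries (right); bars are ± SE and filled points have an adjusted p under 0.05. No point is filled on the left, and Pycard, Casp1, Casp4, Il18 and Gsdmd are filled on the right in both genotypes.

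Pairs of libraries from 1 animal were compared next. Over the 6 animals outside 4 and 8 with both states in 1 genotype (1, 2 and 9 het, 3, 6 and 10 KO), the log2 ratio of stimulated to control, with 0.5 CPM added, was 3.11 to 4.31 for Casp4, 2.76 to 3.74 for Gsdmd, 1.65 to 2.41 for Casp1, 1.56 to 2.71 for Pycard, 1.3 to 3.05 for Il18 and 0.58 to 1.81 for Ninj1, higher in 6 of 6 animals for each. Gsdme was higher in 3 of 6 and ran from −0.33 to 0.40. In animals 4 and 8 the ratio was −2.12 and −2.52 for Casp4 and −1.80 and −1.28 for Gsdmd, the opposite way. The library of animal 8 labelled control lay 50.8% of the way from the mean of the other KO controls to that of the other stimulated KO libraries for Casp4 and 66.3% for Gsdmd on the log2 scale, and 70.6% for Nos2. That of animal 4 lay 58.4% of the way for Casp4 and 38.5% for Gsdmd, and 60.8% for Nos2. Il18 lay 44.2% of the way in animal 8 and 39.2% in animal 4, and Casp1 21.4% and 48.4%. Pycard and Ninj1 lay near the controls or outside them, at 17.8% and 13.7% in animal 8 and at −9.9% and −21.5% in animal 4.

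**Figure D5:**
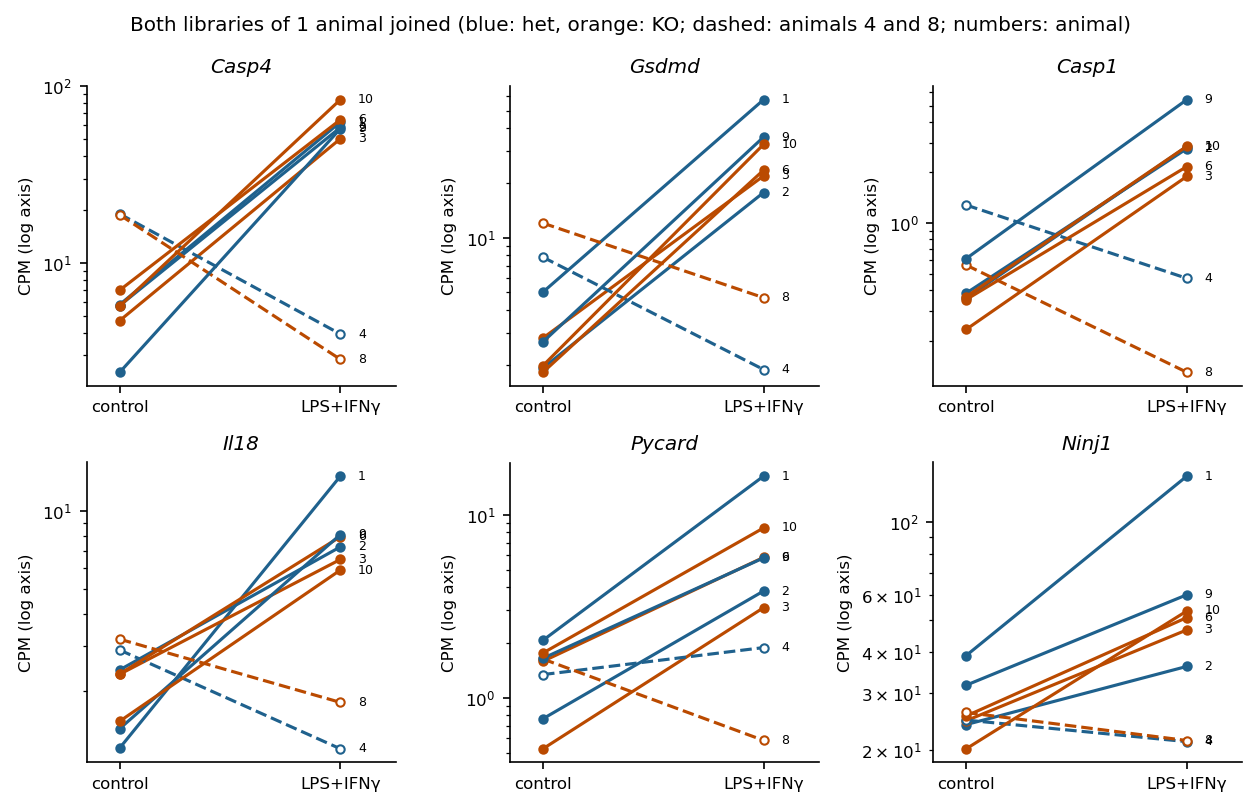
CPM (log axis) of 6 members in the control and LPS+IFNγ library of each animal that has both within 1 genotype; lines join the libraries of 1 animal, blue for het and orange for KO, and dashed lines are animals 4 and 8. All 6 solid lines rise in each panel, and the dashed lines fall for Casp4, Gsdmd, Casp1, Il18 and Ninj1.

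The comparison the series was built on, KO against het, gave no call for any member. In control cells the 7 log2 differences ran from −0.60 (Gsdme) to 0.37 (Il18) in the 16 libraries, and with LPS+IFNγ from −0.46 (Il18) to 0.14 (Casp4), with edgeR adjusted p of 0.892 to 0.934 and 0.764 to 0.925. In the 20 libraries they ran from −0.73 (Casp1) to 0.30 (Il18) and from −0.43 (Casp1) to 0.13 (Casp4). Every member's KO and het libraries overlapped in both states and library sets. Over all genes tested, KO libraries lay wholly above het in 0.192% (20 libraries) and 0.861% (16) in control and in 0.103% and 0.984% with the stimulus, and wholly below in 0.24% and 1.03% and in 0.11% and 0.663%. edgeR called no gene of the whole table, 0% of those tested in each state and library set, and 0 of the 7 members had an unadjusted p under 0.05 (3.43% of genes in control and 2.51% with the stimulus, 20 libraries) or was called by DESeq2, which called 2 genes in control cells of the 20 libraries. The intervals are wide: the 95% interval of KO against het after the stimulus in the 16 libraries was −0.38 to 0.67 for Casp4, −1.0 to 0.40 for Gsdmd, −1.04 to 0.25 for Casp1 and −1.18 to 0.25 for Il18, so these libraries cannot tell small differences from none. The difference between the responses was widest for Il18, at −0.83 with a 95% interval of −1.86 to 0.19 (adjusted p = 1.00), and the difference was called for none of the 7. Gsdme in control cells was −0.60 ± 0.35 in KO against het, and 0.32 with the animal as a block, so its direction depended on the fit. The blocked value rests on animals 5 and 7, the only ones listed under both genotypes. Since 1 animal cannot have both, the animal ID or genotype labels of their libraries are in doubt, and with them the KO-against-het values.

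A wider list of 59 pathway genes was then counted, of which 42 passed the filter. In the 20 libraries edgeR called none in either genotype, against 0% of all genes tested. Its unadjusted p was under 0.05 for 18 in het and 14 in KO cells, against 13.6% and 8.97% of all genes tested. DESeq2 called 10 in het and 1 in KO cells, against 483 and 115 genes in all. In the 16 libraries 19 rose and 1 fell in het cells and 15 rose in KO cells, against 7.15% and 5.76% of all genes called in either direction. Some of the 42, Zbp1, Irgb10 and Il1b among them, had few or no counts in control cells and passed the filter through the stimulated libraries, so these numbers are a description. The median log2 fold change of the 42 was 0.97 in het and 1.06 in KO cells, beside −0.03 and −0.01 over all genes tested. The list was chosen with earlier results of these data known, and it holds Gbp2, which was also used to set the 4 libraries apart. By role, 6 of 8 genes for exposing or recognising LPS rose in both genotypes (Gbp2, Gbp3, Gbp5, Gbp7, Irgb10 and Lbp, but not Cd14 or Tlr4), as did 3 of 3 transcriptional regulators, with 1 of the 6 tested sensors and 1 of 6 adaptors and licensing genes. Of the 8 other gasdermin genes none passed the filter, and the highest value of any of them in any library was 0.255 CPM (Gsdmc4), so Gsdmd and Gsdme were the only gasdermins that could be tested.

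The 6 listed genes with the lowest p were the same in both genotypes. Zbp1, a sensor of Z-form nucleic acids, stood at 0.0874 ± 0.0753 CPM in het control and 311 ± 68.4 CPM in het LPS+IFNγ libraries (SD, n = 4), and at 0.0511 ± 0.0690 and 266 ± 37.0 CPM in KO libraries. With 7 and 3 counts over the control groups, it passed the filter through the stimulated libraries, and neither a fold nor a p is given for it. The products of the guanylate-binding protein genes coat bacteria and expose LPS to caspase-11. Of these genes, Gbp3 and Gbp7 had log2 fold changes of 8.84 ± 0.35 and 6.26 ± 0.35 in het cells. In KO cells they had 8.57 ± 0.34 and 6.11 ± 0.35 (edgeR adjusted p at most 2.45e-08 in both genotypes). Gbp2 had 8.88 ± 0.41 in het and 8.67 ± 0.41 in KO cells. It was used to set the 4 libraries apart, so its values are a description and no p is given for it. Reads of the near-identical Gbp genes may have been split, so their single values are uncertain. Irgb10, a GTPase that opens bacterial membranes, stood at 0.0799 ± 0.128 and 133 ± 52.4 CPM in het control and stimulated libraries and at 0.129 ± 0.121 and 186 ± 23.0 CPM in KO libraries (SD, n = 4). Il18bp, the secreted decoy that binds IL-18, rose by 6.89 ± 0.30 in het (adjusted p = 3.09e-09) and 6.82 ± 0.30 in KO cells (adjusted p = 2.87e-09), from 0.799 ± 0.0759 to 95.7 ± 14.9 CPM in het libraries (SD, n = 4).

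Other listed genes were singled out after their values were seen, because the counts of their groups are small. Casp12, a neighbour of the inflammatory caspases by sequence, was called in het (1.71 ± 0.47, adjusted p = 0.0409), while its KO value was 1.56 ± 0.47 (adjusted p = 0.0716). The initiator caspase gene Casp8 was not called (adjusted p = 0.324 in het and 0.773 in KO). The licensing channel gene Panx1 rose in both (0.64 ± 0.15, adjusted p = 0.0184, and 1.12 ± 0.15, adjusted p = 0.000234). The interferon regulatory factor genes Irf1 and Irf2, of which Irf2 is known to drive Gsdmd transcription, rose by 5.01 ± 0.32 and 1.24 ± 0.22 in het and by 4.98 ± 0.32 and 1.01 ± 0.22 in KO cells (adjusted p at most 0.0120). Tlr4, the receptor for extracellular LPS, stood at 17.6 to 18.6 CPM on average in all 4 groups and was not called.

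Il1b, the other cytokine that caspase-1 matures, had no counts in any of the 8 control libraries of the 16-library set. Stimulated libraries stood at 4.43, 3.83, 0.456, 70.4 and 0 CPM in het and at 1.32, 4.22, 1.12, 0 and 1.19 CPM in KO replicates 1 to 5. The highest value was again in het LPS+IFNγ replicate 4, the library with the highest Nlrp3. That library also had a leukocyte marker sum of 240 CPM, whose part in the Il1b value was not tested. Since Il1b passed the filter through the stimulated libraries and the controls were at 0, no fold or p is given for it. The receptor gene Il1r1 was the 1 listed gene that fell, by 2.81 ± 0.79 in het cells (adjusted p = 0.0442), with a KO value of −1.42 ± 0.75 (adjusted p = 0.392). No listed gene was called lower without animals 1 and 9, without animals 2, 6 and 10, or without the filter on low counts.

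Lastly, the genes most like each member were named by Spearman correlation of log2 CPM over the 20 libraries, which hold both states, so any gene that follows the stimulus ranks high, and share animals. For Casp4 they were Serpina3i (rho = 0.958) and the interferon-stimulated gene Herc6 (0.950), for Gsdmd the adhesion molecule gene Vcam1 (0.961) with Kars and Dtx3l (0.961 each), and for Il18 the NF-kB inhibitor gene Nfkbia (0.962) and Ifi35 (0.959). Casp1 was closest to the acute-phase gene Saa3 (0.931), Pycard to Notch1 (0.929), Ninj1 to Acsl5 (0.941) and Gsdme to Prtn3 (0.916). The rise of the called members was also read without animals that stand apart in leukocyte markers or in Cdh1. Without animals 1 and 9, whose libraries had the highest leukocyte marker sums, Casp4, Gsdmd and Casp1 kept their het call (3.46, 2.59 and 2.78, edgeR adjusted p at most 0.00238). Pycard lost its het call (1.05, adjusted p = 0.493). Casp1 passed the filter through the stimulated libraries, so its calls in these subsets are a description. Without animals 2, 6 and 10, whose libraries had little Cdh1, which leaves 2 KO libraries per state, Casp4 and Gsdmd stayed called in both genotypes (log2 fold changes 3.08 to 3.8, adjusted p at most 0.0338), Casp1 and Il18 in het alone, and Pycard in neither. Fibroblast markers summed to 31.4 to 13128 CPM per library and podocyte markers to 39.8 to 547 CPM, with overlapping ranges in all 4 groups. The highest fibroblast sums, 13128 and 11709 CPM, were in het control and KO LPS+IFNγ replicate 3, both of animal 7. The next highest was 4919 CPM, in KO control replicate 4. Animal 7 was kept in both of these subsets. Endothelial markers summed to 0.602 to 16.1 CPM. The part of these cell types in the members' values was not tested.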

How the data were processed

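RNA of 20 cultures was sequenced from directional libraries, per the labels' protocols. The deposited table holds estimated counts per Ensembl gene ID as whole numbers; FastQC 0.11.9, Salmon 1.10.2, R 4.4.1, DESeq2 1.45.3 and the build GRCm39 are named in the submitters' processing notes, which state no order of steps. Symbols came from GENCODE M21 (GRCm38) and matched 51425 of the 55891 IDs (92.0%). Exon lengths came from the same annotation and promoters from RefSeq (GRCm38.p6).

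The counts were tested with edgeR 4.0.16 (R 4.3.3, limma 3.58.1): TMM scaling, filterByExpr, 4 group means without a block, the robust quasi-likelihood test, and Benjamini-Hochberg adjustment over all genes tested, with calls at 0.05. SE was the log2 fold change over the square root of F, and 95% intervals were 1.96 SE either way. CPM used the TMM-scaled library size, with factors of 0.939 to 1.13. The filter kept 14568 genes in the 20 libraries and 14630 in the 16. The scripts were tested on simulated data.

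The members, the lists and the 4 libraries left out were chosen with earlier results of these data known. The rule named all 9 members, up to 6 pathway genes of lowest p per comparison, and the 3 genes most like each member. The labels' animal ID ties control to stimulated libraries: after the group means were taken off, the 10 same-animal pairs had correlations from −0.33 to 0.65, of which 8 were over 0.1. Alternatives were DESeq2 1.42.0, its size factors, other filters, blocks by replicate number or animal, leaving out each library, and 2 sets of animals left out after the data were seen. Some listed genes are not reported here.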

Additional observations from a re-analysis of the deposited data

Results flagged for a closer look

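In 6 of the 34 groups of 5 libraries that could be tested over the 9 members, 1 library stood apart from the other 4. Its gap to the nearest of them was over 0.71 of the group's range. Chance gives this in about 1 in 20 groups of normally distributed values. The groups here share the same 20 libraries and include genes with few counts, so that rate is only a rough guide. Nlrp3 stood at 6.25 CPM in het LPS+IFNγ replicate 4, where the next library was at 0.303 CPM. Pycard stood at 16.3 CPM in het LPS+IFNγ replicate 1, where the next was at 5.81 CPM. Casp4 stood at 18.9 CPM in het control replicate 5 and at 18.7 CPM in KO control replicate 4, where the next libraries were at 5.81 and 7.02 CPM. Gsdmd stood at 12 CPM in KO control replicate 4, where the next was at 2.98 CPM. Ninj1 stood at 21.4 CPM in KO LPS+IFNγ replicate 4, below the next at 46.8 CPM. The last 4 of these values are from animals 4 and 8.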

How the results depend on the processing

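With all 20 libraries, where edgeR called 0 genes in each comparison, DESeq2 called 483 genes and 4 members in het, 115 genes and 2 members in KO cells, 2 genes for KO against het in control and 1 for the difference of responses. The 16 libraries gave 1046 genes and 5 members in het and 843 genes and 5 members in KO cells. Leaving out 1 library gave 0 to 744 genes and 0 to 5 members in het, the highest without het LPS+IFNγ replicate 5, and 0 to 152 genes and 0 to 1 members in KO cells, the highest without KO LPS+IFNγ replicate 4. In the 16 libraries the genes called in het and KO cells were 1675 and 1321 by DESeq2, 1912 and 1427 with a replicate block by number, 2724 and 1968 with a replicate block by animal, and 2388 and 1672 with that block in the 12 libraries of whole pairs. They were 623 and 1960 without animals 1 and 9, and 424 and 159 without animals 2, 6 and 10, where 2 members were called in KO cells; both sets were chosen after seeing the data. Leaving out 1 of the 16 gave 792 to 1123 genes and 4 to 6 members in het, and 583 to 719 genes and 3 to 5 members in KO cells. With the animal block 6 members were called in each genotype.

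Under these alternatives the responses of Pycard, Casp1, Casp4, Il18, Gsdmd and Ninj1 kept their direction. KO-against-het values of the other 6 members changed sign in 4 of 90 values in control and 15 of 90 after the stimulus (16 libraries), and in 12 and 11 of 101 (20 libraries), none of them called. Gsdme, never called, also changed direction. Its response in het cells was 0.055 with the animal block in 20 libraries, 0.087 in 16 and 0.029 in 12, and −0.28 to 0.17 (20 libraries) or −0.31 to 0.20 (16) when 1 library was left out. KO against het in control was 0.34 (20) and 0.32 (16) with the animal block, which for KO against het rests on animals 5 and 7. After the stimulus it was 0.33 (20) and 0.35 (16) with the animal block, and in the 16 libraries 0.037 with the number block, 0.44 without animals 1 and 9, and −0.42 to 0.022 when 1 library was left out. The cause was not tested. KO against het has no value in the fit of 12 paired libraries, where each animal has 1 genotype. At 3 counts, depth limits Nlrp3 and Aim2 to about 0.163 to 0.219 CPM in KO control libraries.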
